A study of Arabidopsis thaliana with 6 samples.

Results

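The CIN-type TCP factors of Arabidopsis thaliana are 8 transcription factor genes, and they were chosen by gene identifier: TCP2 (AT4G18390), TCP3 (AT1G53230), TCP4 (AT3G15030), TCP10 (AT2G31070) and TCP24 (AT1G30210), whose transcripts are targets of the microRNA miR319, and TCP5 (AT5G60970), TCP13 (AT3G02150) and TCP17 (AT5G08070), which are not. All 8 had a row among the 22426 loci of the table. RNA was sequenced from whole seedlings in 3 libraries labelled NCBP mutant and 3 labelled WT (wild type). Both groups were 2-week-old seedlings grown at 22 °C in a greenhouse under long days (16 hours light, then 8 hours dark). The labels give neither the mutant allele nor the strain of either group, and they do not say whether replicates were grown separately, so each p-value rests on library-to-library spread that could be technical. NCBP (AT5G18110) belongs to the eIF4E family of proteins that bind the mRNA cap, and the design sets plants with a mutated NCBP against wild type.

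TCP proteins are plant transcription factors that bind DNA through a basic helix-loop-helix type domain shared by the family. The CIN-type branch is named after CINCINNATA of snapdragon, and in Arabidopsis leaves its members move cells from division to differentiation, which keeps the blade flat. miR319 pairs with a site in the coding sequence of its TCP targets and leads to cleavage of their mRNA. Plants that make too much miR319, such as the jaw-D line, have low levels of these TCP mRNAs and crinkled leaves. TCP5, TCP13 and TCP17 lack the site, act beside the targeted members and also take part in shade and warmth responses.

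The sequences that set the targeted members apart from TCP5, TCP13 and TCP17 are the mature microRNAs and the paired stretch in each targeted mRNA. They were read from TAIR10.1 as annotated by RefSeq, are written 5′ to 3′, and were found by gene identifier and by a search of the spliced mRNAs. In the microRNAs the capitals mark the seed, bases 2 to 8, which is the same in all 3.
ath-miR319a: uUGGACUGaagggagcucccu
ath-miR319b: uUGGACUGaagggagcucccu
ath-miR319c: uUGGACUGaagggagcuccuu
In the 21-base sites below, capitals mark bases that do not form a Watson-Crick pair with miR319a.
TCP2: CAggGgGAcccuucaguccaa
TCP3: GAggGgUCcccuucaguccaU
TCP4: GAggGgUCcccuucaguccaG
TCP10: aAggGgUAcccuucaguccaG
TCP24: UAggGgGAcccuucaguccaa
The site of TCP2 lies at chr4:10163402-10163422 on the minus strand, that of TCP3 at chr1:19850522-19850542 on the minus strand and that of TCP4 at chr3:5063300-5063320 on the plus strand. The site of TCP10 lies at chr2:13221210-13221230 and that of TCP24 at chr1:10628989-10629009, both on the minus strand. All 5 lie within annotated coding sequence. The 12 bases cccuucagucca are shared by all 5 sites and were held by 7 of 31342 genes with an annotated mRNA. With a penalty of 1 for a mismatch and 0.5 for a G:U pair, the sites scored 3.5 for TCP10, 4.0 for TCP4 and 4.5 for TCP2, TCP3 and TCP24, and 91 of the 31342 genes (0.29%) held a stretch that scored 4.5 or less. That limit was chosen after the scores were seen. MYB33, MYB65 and MYB104 scored 3.0, the lowest of all, so a low score is not particular to the TCP genes. The best stretch in TCP17, TCP13 and TCP5 scored 6.0, 7.5 and 8.5. Counted from the 5′ end of the site, TCP2 and TCP24 differ by 1 base (C1U, the base of TCP2 first), and TCP3 and TCP4 differ by 1 base (U21G, the base of TCP3 first).

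The libraries matched the label of the mutated gene as far as a whole-gene value can show it. NCBP had 57.9, 59.2 and 55.8 FPKM (fragments mapped to the gene, scaled to its length and to the mapped fragments of the library) in mutant replicates 1, 2 and 3, against 97.4, 100.4 and 97.9 FPKM in wild-type replicates 1, 2 and 3. Its log2 fold change was -0.76 (SE 0.05, limma adjusted p 0.000146), and the transcript was still measured in the mutant libraries. A gene on the opposite strand, AT5G18100, overlaps 12.7% of the exonic length of NCBP in TAIR10.1. The FPKM of a library summed to 970383 at least and 1040255 at most, and the number of reads is unknown. Green leaf markers were abundant in both groups, with summed levels of 78549.6 to 83108.8 FPKM in mutant and 71516.3 to 86573.8 FPKM in wild-type libraries. Of the 6, 0 passed at a limma adjusted p under 0.05. For LHCB1.1 the groups did not overlap, with the mutant higher (limma adjusted p 0.133). Root markers summed to 109.4 to 113.2 FPKM in mutant and 104.1 to 122.7 FPKM in wild-type libraries, and flower and seed markers stayed at or under 5.95 FPKM in sum in each library. The shoot meristem list, 3 of 4 genes in the table, summed to 23.1, 22.3 and 22.5 FPKM in mutant replicates 1, 2 and 3, against 20.5, 20.3 and 20.6 FPKM in wild-type replicates 1, 2 and 3, most of it CLV1 (limma adjusted p 0.168). Its defining gene CLV3 was listed at 0 in 5 of the 6 libraries, and the part of meristem tissue in the levels of the TCP and GRF genes described here was not tested.

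TCP2 and TCP4 rose in the mutant, to 126.9% and 125.9% of the wild-type mean, while 0 members fell at the threshold. Of the 8 members, 7 reached a mean of 1 FPKM over the 6 libraries and were tested, 2 of them passed at a limma adjusted p under 0.05, and 5 did not. Over all 18064 tested genes 14.7% passed, 6.27% higher and 8.44% lower in the mutant. The split of calls over all genes depended on scaling, since 42.6% of them were higher with the values as deposited and 53.9% after each library was brought to the same sum. The median log2 fold change was 0.03 over the 7 members and -0.003 over all tested genes. In whole seedlings, fewer cells of a type and less RNA per cell cannot be told apart.

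TCP2, a miR319 target that acts with TCP4 in leaf flattening, had the highest mean of the members in both groups, in wild type with a range that overlapped that of TCP3. It had 35.9, 37.8 and 35.2 FPKM in mutant replicates 1, 2 and 3, against 29.7, 29.6 and 26.5 FPKM in wild-type replicates 1, 2 and 3. Every mutant library lay above every wild-type library. The mean was 36.3 ± 1.34 FPKM in the mutant and 28.6 ± 1.79 FPKM in wild type (SD, n = 3 each), which puts the mutant at 126.9% of wild type. The log2 fold change was 0.33 (SE 0.06, 95% interval 0.19 to 0.48), with a limma adjusted p of 0.0111. The call held in all 16 alternative settings, with adjusted p values between 0.00563 and 0.0472.

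TCP4, the member most studied for its part in ending cell division in leaves and petals, had 30.4, 26.5 and 26.6 FPKM in mutant replicates 1, 2 and 3, against 24.0, 20.4 and 21.8 FPKM in wild-type replicates 1, 2 and 3. The groups did not overlap, and mutant replicate 1 stood above the other mutant libraries. The mean was 27.8 ± 2.22 FPKM in the mutant and 22.1 ± 1.82 FPKM in wild type, so the mutant was at 125.9% of wild type. The log2 fold change was 0.32 (SE 0.08, 95% interval 0.14 to 0.50, limma adjusted p 0.0304). This call was less firm than that of TCP2: the adjusted p was 0.0961, 0.0595 and 0.0518 without mutant replicates 1, 2 and 3, 0.0796 and 0.0803 without wild-type replicates 2 and 3, and 0.0592 without a mean trend, and over its 16 alternatives it lay between 0.0222 and 0.0961.

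The other targeted members did not pass. TCP3, which is known to activate genes that limit organ boundaries, had 29.6, 28.6 and 27.6 FPKM in mutant replicates 1, 2 and 3, against 27.0, 27.7 and 27.8 FPKM in wild-type replicates 1, 2 and 3. The groups overlapped, and the log2 fold change was 0.05 (95% interval -0.07 to 0.18, limma adjusted p 0.534). TCP24, which shares its site with TCP2 but for C1U, had 24.4, 25.2 and 25.7 FPKM in mutant replicates 1, 2 and 3, against 26.2, 25.7 and 21.9 FPKM in wild-type replicates 1, 2 and 3. Its groups overlapped, with wild-type replicate 3 lowest of all, and the log2 fold change was 0.03 (95% interval -0.14 to 0.20, limma adjusted p 0.831). Without wild-type replicate 3 the log2 fold change of TCP24 was -0.05. In TAIR10.1 a gene on the opposite strand, AT1G53233, covers 82.6% of the exonic length of TCP3. That gene had no row of its own among the loci. Because strand is not given for these libraries, the value of TCP3 may hold reads of both. The other 7 members share no exonic base with another gene, and 0.0% of the 50-base stretches of any member occur in another gene's transcripts outside such overlaps.

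TCP10, the targeted member with the best-paired site, was lower in each mutant library than in any wild-type library but did not pass. It had 18.9, 20.2 and 20.0 FPKM in mutant replicates 1, 2 and 3, against 21.9, 21.3 and 23.5 FPKM in wild-type replicates 1, 2 and 3. The log2 fold change was -0.17 (SE 0.06, 95% interval -0.31 to -0.02, limma adjusted p 0.109).

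The members without a miR319 site were less abundant, and the fitted changes of TCP5 and TCP13 were negative. TCP5, which takes part in petal growth and in the response to warmth, had 7.41, 8.58 and 8.11 FPKM in mutant replicates 1, 2 and 3, against 9.63, 12.0 and 9.28 FPKM in wild-type replicates 1, 2 and 3. Its groups did not overlap, and wild-type replicate 2 stood highest. The log2 fold change of TCP5 was -0.32 (SE 0.10, 95% interval -0.55 to -0.08), as large as that of TCP4 in the other direction, but the limma adjusted p was 0.0736. TCP13, annotated as PTF1 in RefSeq and known from shade responses, had 6.83, 8.15 and 8.61 FPKM in mutant replicates 1, 2 and 3, against 9.63, 8.66 and 10.2 FPKM in wild-type replicates 1, 2 and 3. Its groups did not overlap but came close, in mutant replicate 3 and wild-type replicate 2, with a log2 fold change of -0.25 (SE 0.10, limma adjusted p 0.13). TCP17 was near 0 in most libraries. It had 1.07, 3.62e-05 and 0.00686 FPKM in mutant replicates 1, 2 and 3, against 0.000347, 3.41e-05 and 0.37 FPKM in wild-type replicates 1, 2 and 3. TCP17 stayed under the filter, 2 libraries hold nearly all of its signal, 1 of each group, and with no filter its limma adjusted p was 0.713.

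**Figure D1:**
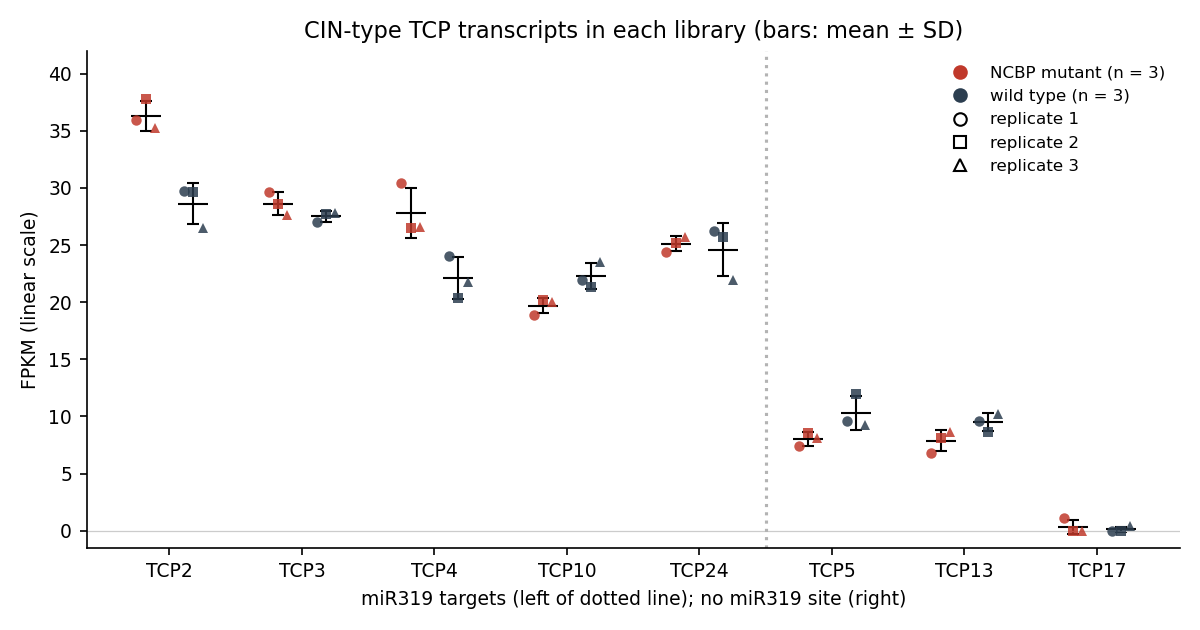
FPKM on a linear axis for the 8 members, with NCBP mutant libraries in red left of wild-type libraries in dark blue, a symbol shape per replicate, and bars for the mean and SD of 3 libraries. The mutant libraries lie above the wild type for TCP2 and TCP4, below it for TCP10, TCP5 and TCP13, and among it for TCP3, TCP24 and TCP17.

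The groups did not overlap for 5 of the 7 tested members, TCP2 and TCP4 with the mutant higher and TCP10, TCP5 and TCP13 with the mutant lower. Over all tested genes the groups did not overlap for 35.5%, 16.4% with the mutant higher and 19.1% with the mutant lower. By exact permutation, 2-sided, each of those 5 members had a p of 0.1, the smallest that 3 against 3 libraries allow, 0.3 for TCP3 and 1.0 for TCP24. The absolute fold change of TCP2 was exceeded by 12.6% of all tested genes, that of TCP4 by 13.9% and that of TCP5 by 14.2%, while for TCP24 the share was 88.0%.

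**Figure D2:**
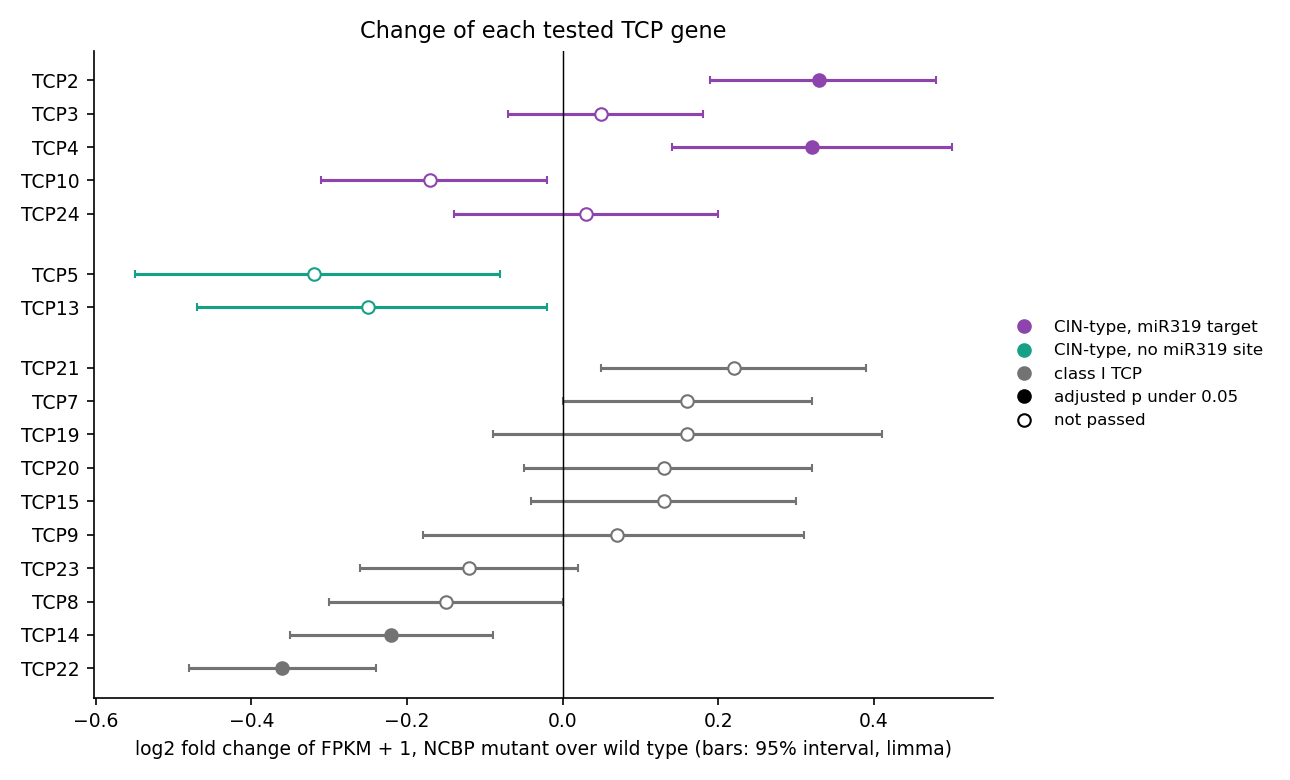
Log2 fold change of FPKM + 1, NCBP mutant over wild type, with 95% limma intervals for the 7 tested CIN-type and 10 tested class I TCP genes. Filled points passed at an adjusted p under 0.05: TCP2 at 0.33 and TCP4 at 0.32 among the CIN-type genes, TCP14 at -0.22 and TCP22 at -0.36 among the class I genes.

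Because FPKM is scaled to length, levels can be set beside each other, and the order of the members differed between the groups. The place of TCP3 carries the limit given above, since its value may hold reads of AT1G53233. In the mutant the means ran from TCP2 at 36.3 FPKM through TCP3 at 28.6, TCP4 at 27.8, TCP24 at 25.1, TCP10 at 19.7, TCP5 at 8.03 and TCP13 at 7.86 to TCP17 at 0.36 FPKM. The ranges over the 3 mutant libraries overlapped for the neighbours TCP3 and TCP4 and for TCP5 and TCP13, and all other neighbours were separate. In wild type the order was TCP2 at 28.6 FPKM, TCP3 at 27.5, TCP24 at 24.6, TCP10 at 22.3, TCP4 at 22.1, TCP5 at 10.3, TCP13 at 9.49 and TCP17 at 0.123 FPKM. There TCP2 was not separate from TCP3, nor TCP24 from TCP10, nor TCP10 from TCP4, nor TCP5 from TCP13. The gap between the targeted members and TCP5 and TCP13 was wider than the spread between libraries in both groups. By mean over the 6 libraries TCP2 lay above 81.0% of all loci in the table, TCP10 above 72.1% and TCP5 above 51.5%.

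The summed level of the 8 members was 154.5, 155.0 and 151.7 FPKM in mutant replicates 1, 2 and 3, against 148.1, 145.3 and 141.5 FPKM in wild-type replicates 1, 2 and 3. TCP2 made up 23.2% to 24.4% of that sum in the mutant libraries, against 18.8% to 20.3% in wild type. TCP4 made up 17.1% to 19.7% of the sum in the mutant libraries and 14.1% to 16.2% in wild type. The share of TCP10 was 12.3% to 13.2% in the mutant libraries and 14.7% to 16.6% in wild type. The 3 members without a site together had 15.3, 16.7 and 16.7 FPKM in mutant replicates 1, 2 and 3, against 19.3, 20.6 and 19.8 FPKM in wild-type replicates 1, 2 and 3. Sums and shares are given as a description, with no test.

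Ratios between members within a library do not depend on how the library was scaled. TCP2 over TCP10 was 1.90, 1.87 and 1.76 in mutant replicates 1, 2 and 3, against 1.36, 1.39 and 1.13 in wild-type replicates 1, 2 and 3. TCP2 over TCP24, the pair whose sites differ by C1U, was 1.47, 1.5 and 1.37 in mutant replicates 1, 2 and 3, against 1.13, 1.15 and 1.21 in wild-type replicates 1, 2 and 3. TCP4 over TCP3, the pair whose sites differ by U21G, was 1.03, 0.927 and 0.964 in mutant replicates 1, 2 and 3, against 0.892, 0.738 and 0.786 in wild-type replicates 1, 2 and 3. In each of these ratios every mutant library was higher than every wild-type library. The value of TCP3 in TCP4 over TCP3 may hold reads of AT1G53233, as given above. TCP2 over TCP4 was 1.31 ± 0.122 in the mutant and 1.3 ± 0.128 in wild type (SD, n = 3 each), a difference smaller than the spread between libraries. By exact permutation, 2-sided, 7 of the 8 ratios had a p of 0.1, the smallest that 3 against 3 libraries allow. Their adjusted p was 0.114 (Benjamini-Hochberg over the 8 ratios), and no ratio passed 0.05. The ratios were picked after the members' values were seen, so they are a description. For TCP2 over TCP10, TCP4 over TCP10 and TCP2 over TCP5 the separation of the groups was fixed by that choice, since one member was higher and the other lower in every mutant library.

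**Figure D3:**
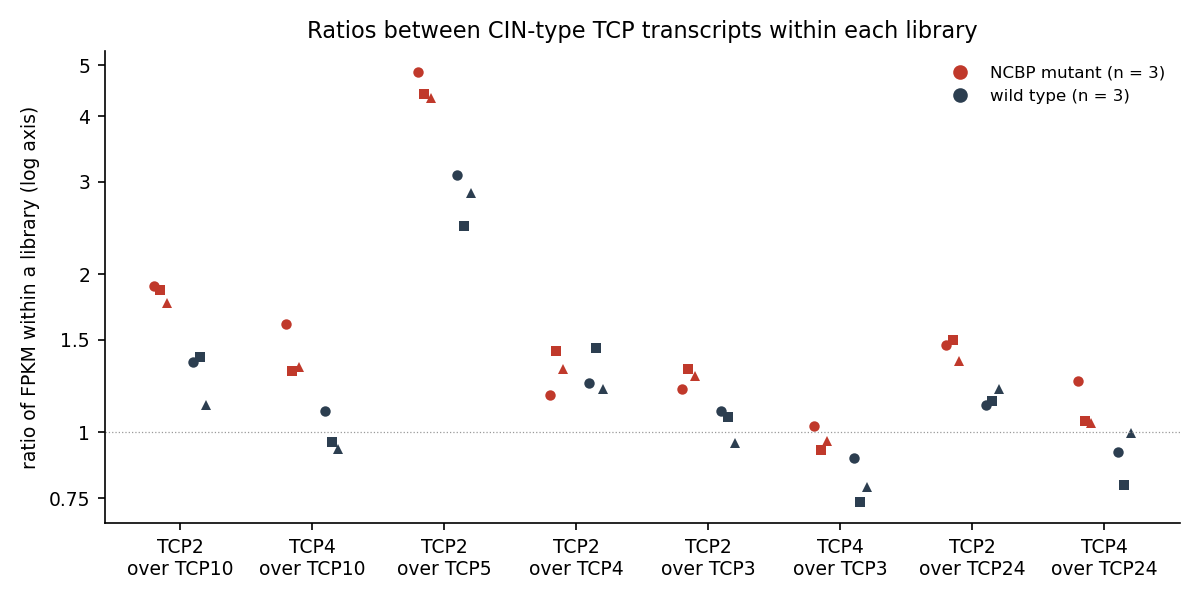
Ratios of FPKM between pairs of members within each library, on a log axis, with NCBP mutant libraries in red left of wild-type libraries in dark blue and a symbol shape per replicate. The groups are apart for 7 ratios and overlap for TCP2 over TCP4, which lies near 1.3 in both.

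Correlations of the members' log2 levels over the 6 libraries describe 6 points that fall in 2 groups. For pairs of members whose groups did not overlap, Pearson's r was for example 0.82 between TCP2 and TCP4, -0.91 between TCP2 and TCP10, -0.92 between TCP4 and TCP5 and 0.93 between TCP10 and TCP13. The weakest of these pairs was TCP5 and TCP13, at 0.53. TCP24, whose groups overlapped, had an r of 0.43 with TCP2, 0.14 with TCP4, -0.27 with TCP3, 0.17 with TCP5, -0.46 with TCP10 and -0.24 with TCP13. The groups of TCP3 overlapped too, but its r was larger in size with the other members. It was -0.85 with TCP13, 0.67 with TCP4, -0.66 with TCP10, 0.60 with TCP2 and -0.60 with TCP5. The gene most like TCP2 of 18063 compared was PLA2-ALPHA (r = 0.9992), followed by RPA70D (r = 0.9964). For TCP4 these were NEK3 (r = 0.9999) and PDF2 (r = 0.9983), and for TCP10 they were MPL1 (r = 0.9972) and AT1G18460 (r = 0.9946). TCP3 was closest to UGT72E3 (r = 0.9847) and FAF4 (r = 0.9818), TCP24 to AT5G30490 (r = 0.9961) and AT5G61240 (r = 0.9813). TCP5 was closest to JR1 (r = 0.9982) and AT3G12260 (r = 0.9942), and TCP13 to AT2G20400 (r = 0.9962) and MLO1 (r = 0.9926). These genes were picked for the highest r among 18063 over only 6 points, a choice that favours values near 1. Shared regulation was not tested.

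The class I TCP genes, the other large branch of the family, gave 2 calls, both lower. Of 13 listed, 12 had a row and 10 were tested: 0 rose, 2 fell and 8 did not pass, beside 14.7% called and 8.44% lower among all tested genes. Of the 10 tested class I genes, the groups did not overlap for 4 with the mutant higher and 3 with the mutant lower. Over all tested genes the groups did not overlap for 16.4% with the mutant higher and 19.1% with the mutant lower. The median log2 fold change of the class I genes was 0.10, against -0.003 over all tested genes. TCP22 (AT1G72010) had 30.7, 31.3 and 32.6 FPKM in mutant replicates 1, 2 and 3, against 40.9, 41.6 and 39.4 FPKM in wild-type replicates 1, 2 and 3 (log2 fold change -0.36, SE 0.05, limma adjusted p 0.00447). TCP14 (AT3G47620), known for seed germination and internode growth, averaged 44.1 ± 2.02 FPKM in the mutant and 51.5 ± 1.81 FPKM in wild type (limma adjusted p 0.0318), a call lost in 8 of 16 alternatives, among them the same sum per library (0.0875), with a range of 0.0267 to 0.113. TCP21 (AT5G08330, also CHE), a partner of the clock protein TOC1, had 87.0 ± 3.57 FPKM in the mutant and 74.9 ± 7.61 FPKM in wild type, with a limma adjusted p of 0.0851; it was picked after its values were seen, as was AS2 below. The 3 CYC/TB1-type genes, TCP1, TCP12 and TCP18, which control branching and flower shape, stayed under the filter.

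The 3 miR319 precursor genes had no row among the loci, so their levels could not be read. MYB33 and MYB65, targets of the related miR159 that also pair with miR319, did not pass, and MYB101 stayed under the filter. MYB33 had 7.83 ± 0.836 FPKM in the mutant and 8.24 ± 0.851 FPKM in wild type, with a limma adjusted p of 0.697. Of 9 tested genes for proteins that bind CIN-type TCPs or repress with them, 0 rose, 1 fell and 8 did not pass, beside 14.7% called among all tested genes. TPL (AT1G15750), the TOPLESS co-repressor, fell to 32.1, 32.2 and 29.7 FPKM in mutant replicates 1, 2 and 3, against 37.3, 36.3 and 36.7 FPKM in wild-type replicates 1, 2 and 3 (log2 fold change -0.22, limma adjusted p 0.0272). That call was lost in 10 of 16 alternatives, each left-out library among them, with adjusted p values from 0.0222 to 0.0778. AS2, a partner of AS1 in keeping KNOX genes silent in leaves, had 3.88 ± 0.811 FPKM in the mutant and 2.44 ± 0.427 FPKM in wild type, with a limma adjusted p of 0.0542.

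Genes reported elsewhere as direct or indirect targets of CIN-type TCPs were called about as often as all genes. Of 18 listed, 13 were tested: 2 rose, 0 fell and 11 did not pass, beside 14.7% called among all tested genes, with a median log2 fold change of -0.04 against -0.003 over all tested genes. LOX2 (AT3G45140), a lipoxygenase of jasmonate synthesis activated by TCP4, had 82.6, 78.9 and 65.2 FPKM in mutant replicates 1, 2 and 3, against 51.2, 53.4 and 53.0 FPKM in wild-type replicates 1, 2 and 3. Its log2 fold change was 0.51 (SE 0.08, limma adjusted p 0.00673). ARR16 (AT2G40670), a type-A cytokinin response regulator activated by TCP4, had 4.32, 2.44 and 3.57 FPKM in mutant replicates 1, 2 and 3, against 1.46, 1.77 and 1.53 FPKM in wild-type replicates 1, 2 and 3. Its log2 fold change was 0.76 (SE 0.17, limma adjusted p 0.0188), and 0.35 with a pseudocount of 5. The call of ARR16 was lost without mutant replicate 1 (0.064) or 3 (0.057) and without wild-type replicate 1 (0.0545) or 3 (0.0547), with a range of 0.0122 to 0.064. IAA3, AS1, SAUR65 and KRP1, further reported targets, did not pass, and YUC5, CO and VND7 stayed under the filter. The microRNA genes MIR396B and MIR164A, also listed, had no row among the loci. Of the 13 tested, the groups did not overlap for 3 with the mutant higher and 5 with the mutant lower. IAA3 and AS1 were among those lower. Over all tested genes the shares were 16.4% with the mutant higher and 19.1% with the mutant lower. The letters GGNCCC, a core bound by TCP proteins, were searched on both strands from 250 bases before to 50 bases after annotated gene starts in TAIR10.1. They were found at 2381 of 27444 protein-coding genes (8.68%), at 0 of the 8 members and at 2 of 16 reported targets, SAUR65 and KRP1. Only this pattern and this window were searched, so the counts cannot show which genes lack a site for TCP proteins.

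The GRF genes encode growth factors of young leaves, and 3 of them rose. Most GRF mRNAs are targets of miR396, which TCP4 activates, while GRF5 lacks the site. MIR396B had no row among the loci, and a part of miR396 in the GRF levels was not tested. Of 10 listed GRF and GIF genes 7 were tested: 3 rose, 0 fell and 4 did not pass, beside 6.27% higher and 8.44% lower among all tested genes. The median log2 fold change of the 7 was 0.25, against -0.003 over all tested genes. GRF4 (AT3G52910) had 10.2, 10.7 and 9.66 FPKM in mutant replicates 1, 2 and 3, against 6.37, 7.43 and 7.50 FPKM in wild-type replicates 1, 2 and 3 (log2 fold change 0.47, SE 0.08, limma adjusted p 0.00924). GRF5 (AT3G13960), which prolongs cell division in leaves, had 3.16 ± 0.253 FPKM in the mutant and 1.97 ± 0.11 FPKM in wild type (log2 fold change 0.48, limma adjusted p 0.0204). GRF1 (AT2G22840) had 16.4 ± 1.21 FPKM in the mutant and 13.6 ± 0.455 FPKM in wild type (log2 fold change 0.25, limma adjusted p 0.0448). The call of GRF4 held in all 16 alternatives. The call of GRF5 was lost in 5 of 15 alternatives, without mutant replicates 1 (0.073) or 2 (0.0791), without wild-type replicates 1 (0.0521) or 2 (0.0519) and with a replicate block (0.0541), over a range of 0.0123 to 0.0791, and its log2 fold change was 0.23 with a pseudocount of 5. The call of GRF1 was lost in 9 of 16 alternatives, over a range of 0.0335 to 0.14. The sum of the meristem list, given above and mostly CLV1, was higher in each mutant library than in any wild-type library. STM, the other tested gene of that list, overlapped between the groups (limma adjusted p 0.742). Whether meristem tissue had a part in the GRF levels was not tested.

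Other genes of leaf form were tested in 3 lists, where the share called among all tested genes was 14.7%. The 3 CUC boundary genes stayed under the filter. Of 3 tested class I KNOX genes, which keep meristem cells undetermined, 0 passed, with the lowest limma adjusted p at 0.525 for KNAT6. Of 12 tested genes of leaf growth and margin 0 rose and 2 fell. ARF2 (AT5G62000), an auxin response factor that limits organ size, had 78.8 ± 0.687 FPKM in the mutant and 91.9 ± 2.52 FPKM in wild type (log2 fold change -0.22, limma adjusted p 0.0171). NGA3 (AT1G01030), a NGATHA factor that acts with CIN-type TCPs at the leaf margin, had 1.97 ± 0.336 FPKM in the mutant and 3.14 ± 0.393 FPKM in wild type (log2 fold change -0.48, limma adjusted p 0.0399). The call of ARF2 was lost in 4 of 16 alternatives (adjusted p up to 0.059) and that of NGA3 in 8 of 15 (up to 0.122), where a pseudocount of 5 gave NGA3 a log2 fold change of -0.22. Of 13 tested leaf polarity genes 0 rose, 1 fell and 12 did not pass. ETT (AT2G33860), an auxin response factor of the lower leaf side, fell to 47.6, 44.2 and 50.8 FPKM in mutant replicates 1, 2 and 3, against 59.6, 57.7 and 59.2 FPKM in wild-type replicates 1, 2 and 3 (log2 fold change -0.30, SE 0.06, limma adjusted p 0.0133). Its call held in all 16 alternatives.

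**Figure D4:**
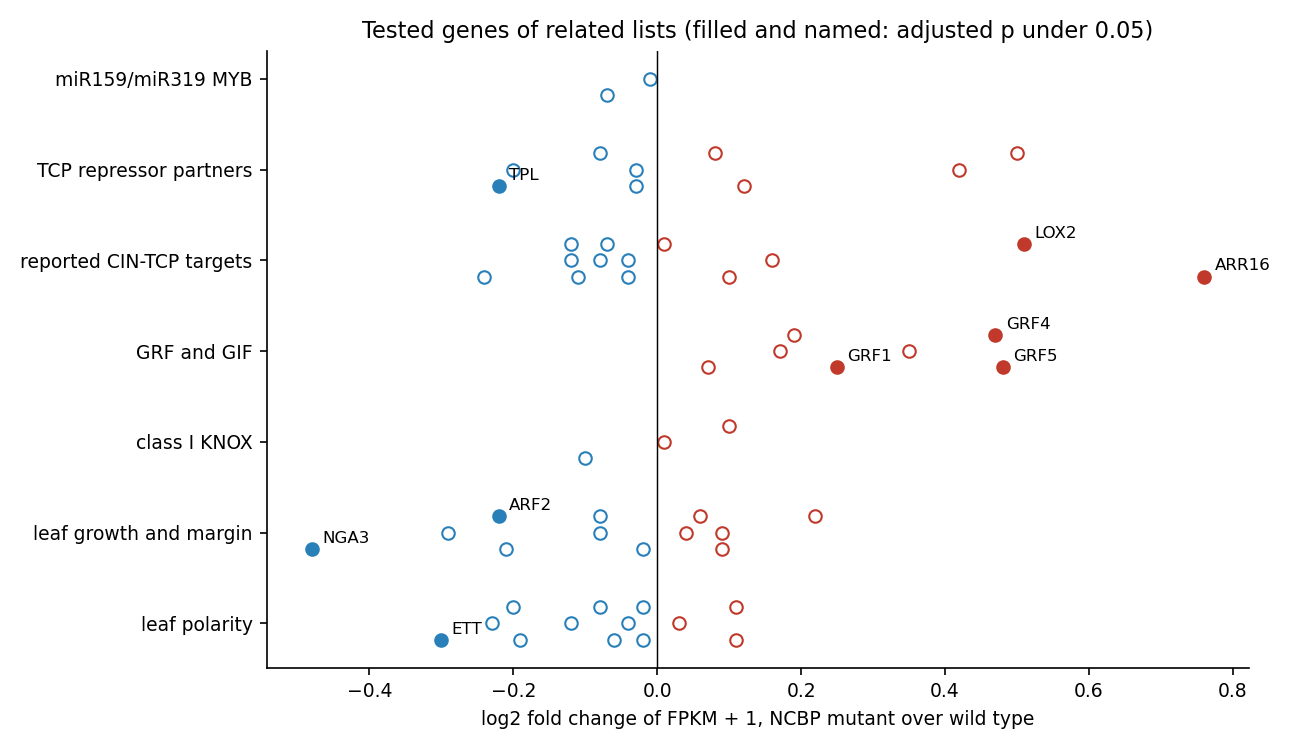
Log2 fold change of FPKM + 1, NCBP mutant over wild type, for each tested gene of 7 lists related to the CIN-type TCP factors, 1 list per line, red above 0 and blue below 0. The filled and named points passed at a limma adjusted p under 0.05, with ARR16 at 0.76, LOX2 at 0.51 and 3 GRF genes at 0.25 to 0.48 on the higher side and NGA3, ETT, ARF2 and TPL on the lower side.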

How the data were processed

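The authors deposited 1 table of FPKM for 22426 loci in 6 libraries, per the labels 3 from the NCBP mutant and 3 from wild type. The submitters' processing notes name HISAT2. The sources used here do not state the program that made the FPKM, the build, the annotation, strandedness or depth, so precision is known through the spread between libraries. Columns were assigned by label. Values were analysed as log2(FPKM + 1), which understates changes of low genes. The 18064 genes that averaged 1 FPKM or more were tested with limma 3.58.1 in R 4.3.3 (mean trend, 2-sided, Benjamini-Hochberg over all tested genes, threshold 0.05). The fit was run on simulated data drawn with its own fitted variances and with fold changes larger than those of the members. That run cannot show how often changes of the members' size are found. Alternatives covered pseudocount, filter, scaling, moderation, a replicate block and each library left out. Members, lists, tests and named genes (members, NCBP, up to 4 passing genes per list or its smallest p, 2 most similar genes per member) were chosen with earlier results of these data known; other genes complete a list's count. Sequences and overlaps come from RefSeq TAIR10.1, which need not be the authors' build.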

Additional observations from a re-analysis of the deposited data

How the results depend on the processing

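The number of members that passed was 2 as reported, 1 without a mean trend and between 1 and 2 when a library was left out, all of them higher in the mutant; TCP2 passed throughout, and in these cases TCP4 was the call lost. Members called lower numbered 0 in all 16 alternatives, and TCP5 came nearest, at an adjusted p of 0.0557. The direction of each tested member held in all alternatives but that of TCP24, whose log2 fold change ranged from -0.0493 (without wild-type replicate 3) to 0.0746 with a library left out. The 2 genes most like TCP24 turned without wild-type replicate 3, AT5G30490 over a range of -0.0681 to 0.072 and AT5G61240 over -0.034 to 0.1214. Both were picked by their r with TCP24 over the same 6 libraries, so their turn is no separate observation. Calls over the related lists numbered 11 as reported and between 4 and 9 with a library left out: 4 and 6 without mutant replicates 1 and 2, 6 and 5 without wild-type replicates 1 and 3. Over all genes 2657 passed, and between 1321 and 1997 with a library left out, 579 to 987 higher and 720 to 1107 lower: 1321 and 1391 without mutant replicates 1 and 2, 1680 without wild-type replicate 3. A left-out library leaves fewer samples in the fit; other causes were not tested. With a replicate block 1991 genes and the same number of members, 2, passed. The block is no pairing from the design: same-numbered libraries' deviations from their group means correlated at 0.071, -0.072 and -0.06. NCBP kept its call in all alternatives. The depth behind the values is unknown, which limits low genes such as TCP17, ARR16, GRF5 and NGA3.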
